A study of Drosophila melanogaster with 9 samples.

Results

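The mutually exclusive exon events of Dscam1 (FBgn0033159) were examined in wing imaginal discs of Drosophila melanogaster larvae. A mutually exclusive exon event pairs 2 exons that lie between the same flanking exons, of which a transcript takes one or the other. Every row of the mutually exclusive exon table whose gene identifier was that of Dscam1 was taken, which gave 1244 of 2635 rows (47.2%). The table covered 521 genes, and no other gene had more than 55 rows (median 1). The study sequenced poly(A) RNA of 9 libraries, each from 60 pooled discs. In 3 libraries a Psi RNAi transgene (tsGAL80;tubG4/Psi RNAi) and in 3 a Myc RNAi transgene (tsGAL80;tubG4/Myc RNAi) was driven for 3 days by tubulin-GAL4, a driver active throughout the animal, and 3 control libraries are labelled as carrying the driver alone (tsGAL80;tubG4/+). By these genotype labels all 3 groups carried the driver and the temperature-sensitive GAL80 repressor. The deposited count tables of the controls are named W1118, a strain without a driver. Whether the controls were W1118 itself or a cross of it to the driver is not settled by the sources used here. All were raised for 4 days at 18 °C and 3 days at 25 °C. The labels give the larvae as mid-third instar in one field and as wandering in another. No source states that the pools came from separate crosses, so every p-value measures the spread between pools, which may be technical.

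The splicing table compares Psi RNAi with control, and its header does not say which set of 3 libraries is which. They are called here the first listed set and the second listed set, and every difference is the first minus the second. The header gives no direction of Psi RNAi, and none is assigned here. No Dscam1 event with enough reads for a test passed it. In both sets exon 9 rested on 5 of its variants, exon 4 on 10, exon 6 on nearly all of its 47 listed variants at a few reads each, and exon 17 mostly on variant 1.

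Dscam1 encodes a cell surface protein of the immunoglobulin superfamily that is best known from the nervous system of flies, where neurites of 1 neuron recognise and repel each other because they carry the same isoforms. It is also made by haemocytes, the blood cells of the fly. Its diversity comes from 4 clusters of variable exons, each of which contributes 1 exon to a transcript. The clusters at exons 4 and 6 encode variable parts of a pair of immunoglobulin domains, the cluster at exon 9 encodes a whole immunoglobulin domain, and the cluster at exon 17 encodes the transmembrane segment. Psi is a KH domain protein that binds RNA and is known as a splicing regulator of the P element.

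Dscam1 lies on the minus strand of chromosome arm 2R, at chr2R:7317924-7381899 of the Release 6 assembly. Grouped by position, the 1244 rows fell between 4 pairs of flanking exons. The exon 4 cluster held 65 rows, between the flanking exons chr2R:7368388-7368732 and chr2R:7361718-7361867. The exon 6 cluster held 1080 rows, between chr2R:7361718-7361867 and chr2R:7348131-7348975. The exon 9 cluster held 98 rows, between chr2R:7347849-7348010 and chr2R:7332261-7332380. The exon 17 cluster held 1 row, between chr2R:7329289-7329455 and chr2R:7324582-7324737. In each case the flank that is transcribed first is given first. The 3′ flank of the exon 4 cluster is also the 5′ flank of the exon 6 cluster.

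The rows were built from 77 exons, all of which matched an annotated exon at both ends. Variants were numbered in order of transcription within the annotated cluster. The annotation holds 95 variable exons, 12 in the exon 4 cluster, 48 in the exon 6 cluster, 33 in the exon 9 cluster and 2 in the exon 17 cluster, and each of its 75 Dscam1 transcripts takes 1 exon from each cluster. All 12 exon 4 variants, 47 exon 6 variants, 16 exon 9 variants and both exon 17 variants were listed. The 18 exons in no row were exon 6 variant 11 and 17 variants of exon 9 (variants 1, 2, 4, 5, 7, 12, 14, 18, 19, 20, 21, 23, 24, 27, 29, 32 and 33). The annotated exons allow 38016 combinations and the listed exons 18048.

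The variable exons were alike in length within a cluster. The annotated exon 4 variants were 159 to 171 bases long and the exon 17 variants 168 and 213 bases, all multiples of 3. The exon 9 variants were 279 to 306 bases long, and variant 13, of 299 bases, was the 1 exon of that cluster whose length was not a multiple of 3. The exon 6 variants were 118 to 133 bases long, and every one of them left a remainder of 1 base after division by 3.

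An exon had the same reads in every row in which it appeared. The 1244 rows therefore rest on 77 sets of reads, and a row count says little about how much was measured. The listed pairs came close to all pairs that the exons of a cluster can form, with 65 of 66 in the exon 4 cluster, 1080 of 1081 in exon 6, 98 of 120 in exon 9 and the single pair of exon 17. In all 24 pairs that were missing, both exons were without reads in a whole set of 3 libraries, and no listed pair was.

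The 77 exons held 2665 reads over the 6 libraries, 380, 401 and 420 in the first listed set and 514, 527 and 423 in the second. The exon 4 cluster took 575 of them, exon 6 took 585, exon 9 took 756 and exon 17 took 749. In replicate order, the Dscam1 gene counts were 2879, 2982 and 3268 in Psi RNAi and 4093, 4182 and 3198 in control. Within each group these rank the libraries as the exon reads do in listed order, if the first listed set is Psi RNAi. Which set is which was not tested. Every annotated transcript takes 1 exon of each cluster, so the depths of the clusters can be set side by side once they are scaled by exon length. The libraries had 298 to 461 reads per kb in the exon 4 cluster, 299 to 551 in exon 6, 244 to 399 in exon 9 and 403 to 517 in exon 17. These ranges overlapped for each pair of clusters except exon 9 and exon 17. Variants of a cluster resemble each other in sequence, and how reads that align to several of them were counted is not given in the sources used here.

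Reads were spread very differently among the exons of each cluster. In the exon 9 cluster, 5 exons (variants 30, 9, 6, 31 and 13, a group chosen after their values were seen) held 731 of 756 reads, 96.7%, and between 94.3% and 100% in single libraries. In the exon 4 cluster the 5 exons with most reads held 63.8%, and in the exon 6 cluster 27.9%. The most-read exon alone held 65.2% of the reads in exon 17, 34.5% in exon 9, 19.5% in exon 4 and 7.01% in exon 6.

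**Figure D1:**
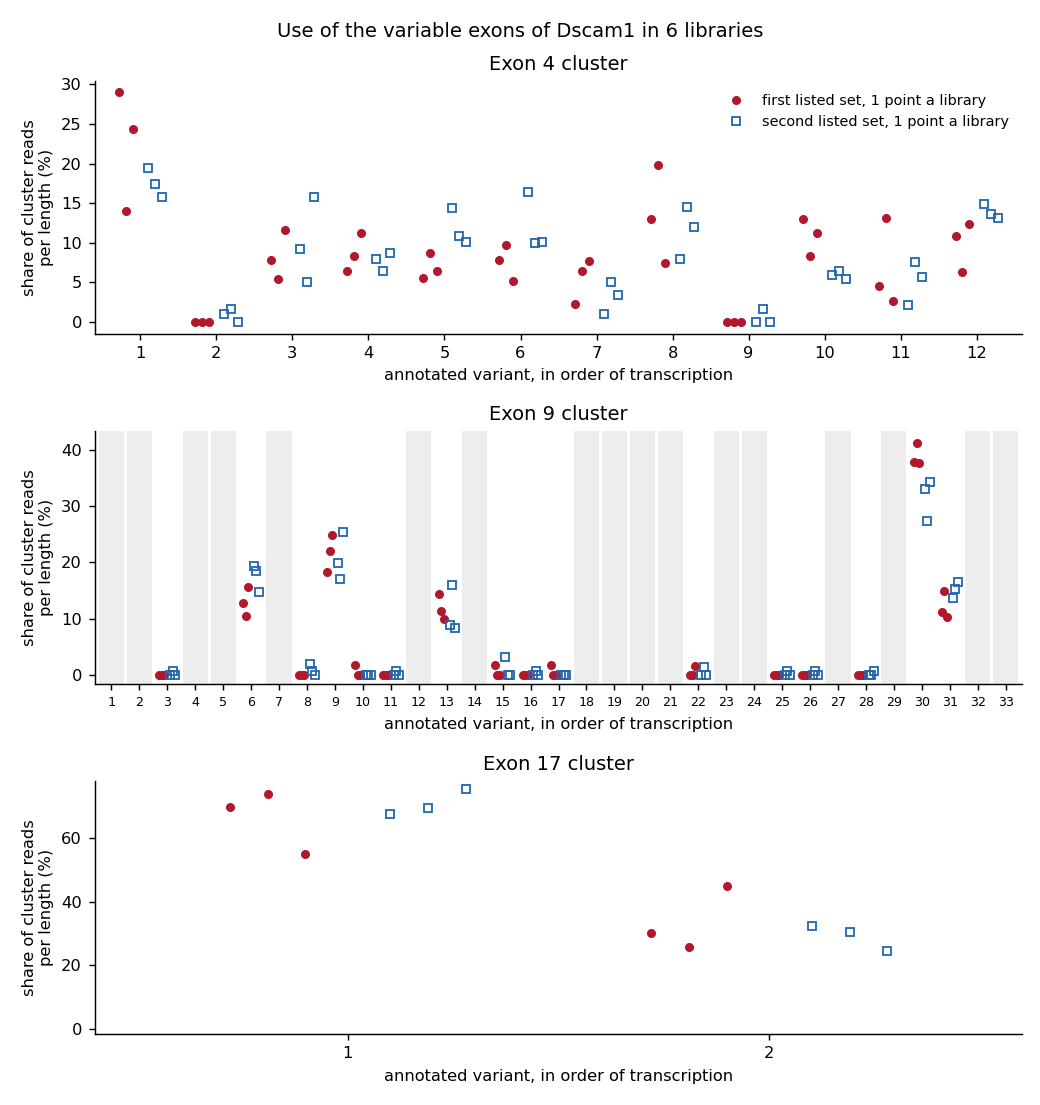
Share of the reads of its cluster, per exon length, taken by each variable exon of Dscam1 (y axis, percent) against the annotated variant number in order of transcription (x axis), for the exon 4, exon 9 and exon 17 clusters. Red filled points are the 3 libraries of the first listed set, blue open squares the 3 of the second, and grey bands are annotated exons in no row. In exon 9 the reads sit on variants 6, 9, 13, 30 and 31, while in exon 4 they spread over 10 variants and variants 2 and 9 lie near 0.

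Exon 9 variant 30 (chr2R:7335716-7336003) was the most used exon of its cluster in all 6 libraries. It had 41, 39 and 48 reads in the first listed set, against 51, 38 and 44 in the second. As a share of the cluster's reads this was 37.6%, 41.1% and 37.5% in the first listed set, against 32.9%, 27.1% and 34.1% in the second. The 2 sets did not overlap in this share, but the 95% Wilson intervals of single libraries, which cover counting error only, ran from 29.1% to 51.1% in the first listed set and from 20.5% to 42.6% in the second.

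Exon 9 variant 9 (chr2R:7344279-7344569) came next, with 20, 21 and 32 reads in the first listed set and 31, 24 and 33 in the second. Its share was 21.3% over all 6 libraries (Wilson interval 18.5% to 24.4%), and the sets overlapped. Exon 9 variant 6 (chr2R:7345485-7345775) had 14, 10 and 20 reads in the first listed set and 30, 26 and 19 in the second, a share of 15.7% over all libraries (13.3% to 18.5%). Variants 31 and 13 had 102 and 88 reads in all, and the intervals of their shares, 11.2% to 16.1% and 9.55% to 14.1%, overlapped each other and that of variant 6. The order of the exon 9 variants was thus clear of counting error for variant 30 and not for the last 3.

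The other 11 listed exon 9 variants held 25 reads together, 1 to 7 each. Of the 96 combinations of an exon 9 variant and a library, 54.2% had no reads. At this depth a variant without reads in all 6 libraries could make up as much as 0.397% of the cluster's reads, so the rare variants were measured near the limit of detection.

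In the exon 4 cluster, variant 1 (chr2R:7366805-7366966) was the most used, with 26, 13 and 19 reads in the first listed set and 19, 21 and 14 in the second. Variant 8 (chr2R:7364178-7364348) had 12, 19 and 6 reads in the first listed set and 8, 18 and 11 in the second. Variant 12 (chr2R:7363024-7363194) had 10, 6 and 10 reads in the first listed set and 15, 17 and 12 in the second. Variant 12 was one of 4 of the 12 exon 4 variants, with variants 5, 6 and 10, whose length-scaled shares did not overlap between the sets. Among the tested exons of other genes, the read shares of the 2 sets did not overlap for 36.5%. The remaining exon 4 variants had 24 to 57 reads each, except variant 2 with 3 reads and variant 9 with 2, all of them in the second listed set. A count of 0 in the first listed set does not separate it from the second at these numbers.

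In the exon 6 cluster the reads were thin and even. The median listed exon had 10 reads over 6 libraries, 21 of the 47 had fewer than 10, and 30.9% of the combinations of exon and library had none. The most used was variant 4 (chr2R:7359875-7360007), with 11, 3 and 5 reads in the first listed set and 7, 3 and 12 in the second. Variant 6 (chr2R:7359442-7359565) had 6, 4 and 7 reads in the first listed set and 10, 8 and 3 in the second. Variant 46 (chr2R:7349788-7349911) had 0, 4 and 4 reads in the first listed set and 15, 4 and 3 in the second, so that 1 library held 15 of its 30 reads.

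Single libraries detected 24 to 38 of the exon 6 variants. This followed depth in part, since at 67 reads, the count of the shallowest library, 24 to 31.4 variants were expected from the libraries' own reads. With 38 variants in the deepest library and 47 listed over all 6, no single library showed the whole cluster.

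**Figure D2:**
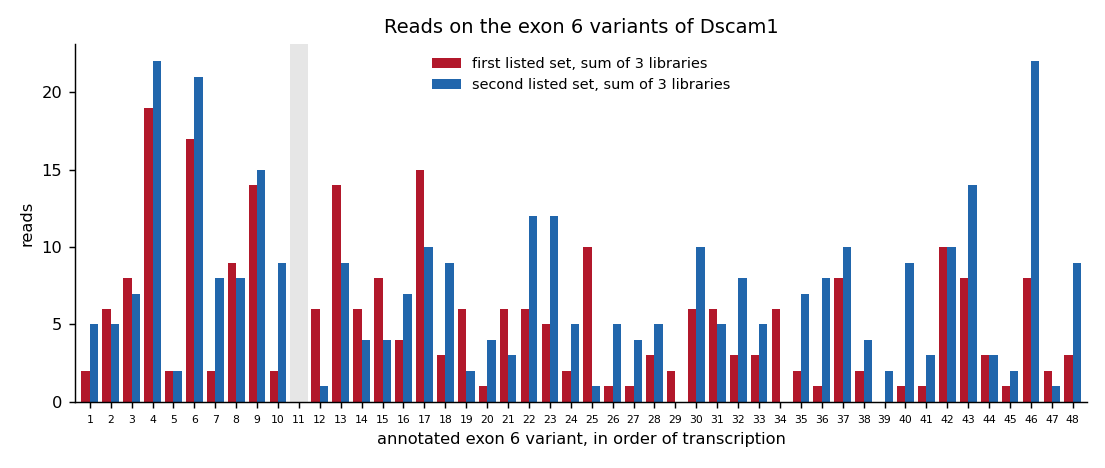
Reads on each exon 6 variant of Dscam1 (y axis) by annotated variant number in order of transcription (x axis), with red bars for the sum of the 3 libraries of the first listed set and blue bars for the second. The grey band is variant 11, which is in no row. Variants 4, 6 and 46 are highest with 41, 38 and 30 reads in all, and most variants have 10 or fewer in each set.

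In the exon 17 cluster, variant 1 (chr2R:7326617-7326784) was used more than variant 2 (chr2R:7326152-7326364) in all 6 libraries. Variant 1 had 75, 83 and 62 reads in the first listed set, against 88, 96 and 84 in the second. Variant 2 had 38, 34 and 59 reads in the first listed set, against 49, 49 and 32 in the second. Scaled for length, the inclusion level of variant 1 was 0.698, 0.740 and 0.551 in the first listed set, against 0.677, 0.696 and 0.754 in the second. One library of the first listed set lay below the other 5, and its Wilson interval for the share of reads (42.4% to 60.0%) overlapped those of 3 of the others.

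Whether the choice of exons differed between Psi RNAi and control was tested row by row. For each row of the whole table with at least 20 reads per library on average, the reads of the 2 exons were compared between the sets by edgeR's quasi-likelihood test, with Benjamini-Hochberg adjustment over all tested rows and a call at an adjusted p below 0.01. Of the 1244 Dscam1 rows, 62 (4.98%) reached the minimum, which were 18 of exon 4, none of exon 6, 43 of exon 9 and the row of exon 17. Of the readable rows of other genes, 1196 (89.7%) reached it. The median was 3.83 reads per row and library in Dscam1 and 203 in other genes. In 1136 Dscam1 rows (91.3%) at least 1 library had an inclusion level of exactly 0 or 1, and in 533 rows at least 1 library had no reads on either exon.

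**Figure D3:**
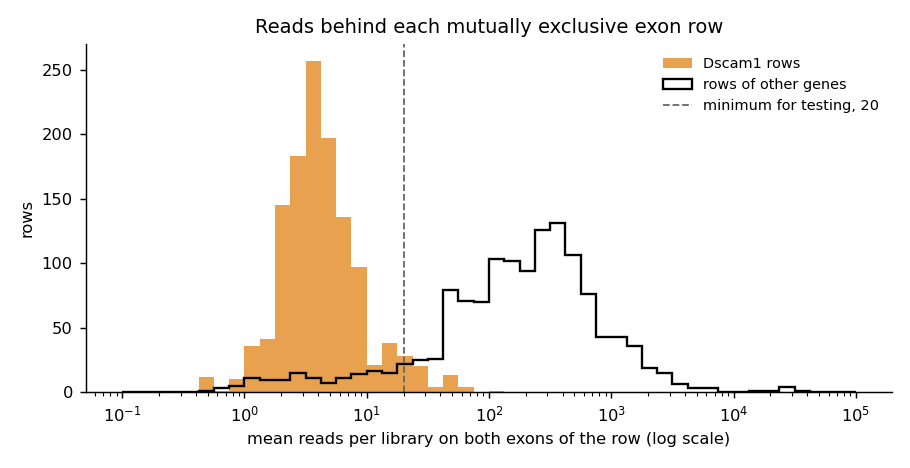
Number of mutually exclusive exon rows (y axis) by mean reads per library on both exons of the row (x axis, log scale), for Dscam1 (orange) and for other genes (black outline). The dashed line is the minimum of 20 reads for the test. The median is 3.83 reads for Dscam1 rows and 203 for the rows of other genes, and 62 of 1244 Dscam1 rows lie at or above the line.

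No Dscam1 row was called, and none had an unadjusted p below 0.05 by edgeR. The smallest adjusted p of a Dscam1 row was 0.205. Over all 1258 tested rows 162 were called (12.9%), and all of them lay outside Dscam1, where 13.5% of 1196 rows were called in 92 genes. The levels of the 2 sets did not overlap in 5 of the 62 Dscam1 rows, against 32.5% of the tested rows of other genes. The limma and the quasi-binomial model called 0.715% and 0.238% of all tested rows and none of Dscam1, where 4 rows were below an unadjusted p of 0.05 in each. With so few calls over the whole table, a count of 0 of 62 says little about Dscam1. The median size of the difference in mean inclusion level was 0.0175 in the tested Dscam1 rows and 0.0263 in other rows, at a median of 27.1 reads per library in Dscam1 and 244 in other rows. A row that was not called is not shown to be equal in the 2 sets, and the interval given with each event shows which sizes the data allow.

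The tested rows repeat the same few exons. All 18 tested exon 4 rows paired exons with 10 or more reads, and they covered 10 exons. Of the 43 tested exon 9 rows, 10 paired the 5 well-read exons with each other, and 33 paired one of these with an exon of fewer than 10 reads.

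Among the 18 tested rows of the exon 4 cluster the largest difference was between variants 5 and 8. The inclusion level of variant 5 was 0.301, 0.303 and 0.463 in the first listed set, against 0.644, 0.428 and 0.458 in the second. The sets overlapped, and the log2 odds ratio was -0.98 ± 0.72 (SE; 95% interval -2.45 to 0.49), with an edgeR adjusted p of 0.40. Between variants 1 and 5, the level of variant 1 was 0.839, 0.619 and 0.792 in the first listed set, against 0.576, 0.618 and 0.609 in the second. Here the sets did not overlap, by a margin of 0.001 between the nearest libraries, and the log2 odds ratio was 1.07 ± 0.65 (SE; interval -0.27 to 2.41; edgeR adjusted p 0.293).

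The exon 4 rows with most reads were those of variants 1 and 8 and of variants 1 and 12, with 31.0 and 30.3 reads per library. Against variant 8, the level of variant 1 was 0.691, 0.414 and 0.766 in the first listed set and 0.711, 0.547 and 0.568 in the second, so that the second set lay within the range of the first, with a log2 odds ratio of 0.10 ± 0.63 (SE; interval -1.19 to 1.38; edgeR adjusted p 0.949). Against variant 12, it was 0.729, 0.691 and 0.663 in the first listed set and 0.567, 0.561 and 0.547 in the second. These sets did not overlap, and the log2 odds ratio was 0.85 ± 0.59 (SE; interval -0.35 to 2.05; edgeR adjusted p 0.362). None of the 4 intervals excluded 0.

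Among the tested rows of the exon 9 cluster the largest difference was between variants 6 and 30. The level of variant 6 was 0.253, 0.203 and 0.293 in the first listed set, against 0.369, 0.404 and 0.30 in the second. The sets did not overlap, with nearest libraries at 0.293 and 0.30, and the log2 odds ratio was -0.72 ± 0.42 (SE; interval -1.58 to 0.15; edgeR adjusted p 0.270). Between variants 6 and 13 the level of variant 6 was 0.472, 0.481 and 0.611 in the first listed set and 0.686, 0.536 and 0.638 in the second, with overlap and a log2 odds ratio of -0.53 ± 0.56 (SE; interval -1.68 to 0.62; edgeR adjusted p 0.594). The row with most reads in the cluster paired variants 9 and 30, at 70.3 reads per library. Variant 9 stood at 0.326, 0.348 and 0.398 in the first listed set and 0.376, 0.385 and 0.427 in the second, and the log2 odds ratio was -0.22 ± 0.38 (SE; interval -0.99 to 0.55; edgeR adjusted p 0.765).

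The exon 17 row had the most reads of all Dscam1 rows, 124.8 per library, and so the narrowest interval of the named events. With the levels given above, the difference in mean level was 0.046 in size and the log2 odds ratio -0.30 ± 0.33 (SE; interval -0.96 to 0.37; edgeR adjusted p 0.605). Shifts of the odds below -0.96 or above 0.37 on the log2 scale lay outside this interval.

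**Figure D4:**
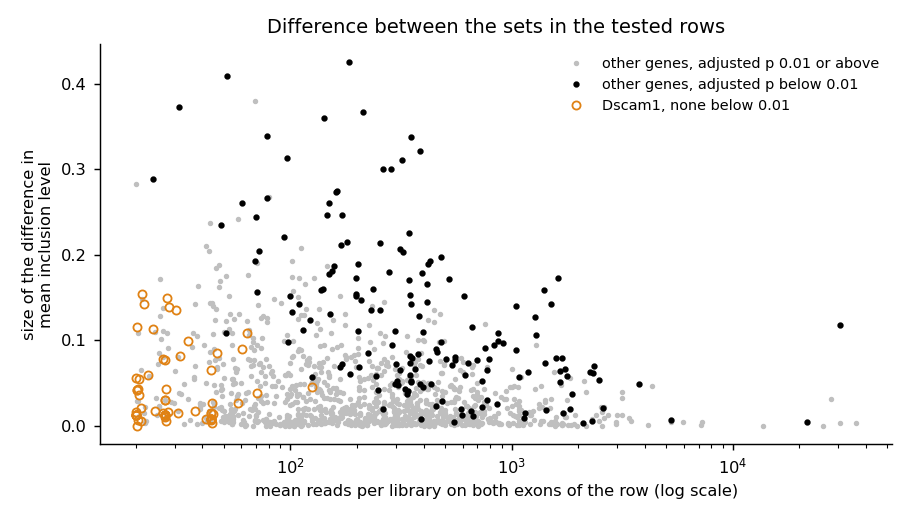
Size of the difference in mean inclusion level between the 2 sets (y axis) against mean reads per library (x axis, log scale) for the 1258 tested rows. Orange circles are the 62 Dscam1 rows, black points rows of other genes with an edgeR adjusted p below 0.01, and grey points the remaining rows of other genes. The Dscam1 rows lie at 124.8 reads or fewer and reach a size of 0.154, and rows of other genes reach 0.425.

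No exon 6 row reached the minimum of 20 reads per library. The 2 rows with most reads paired variant 4 with variant 6, at 13.2 reads per library, and variant 4 with variant 46, at 11.8. Against variant 6, the level of variant 4 was 0.638, 0.419 and 0.407 in the first listed set and 0.402, 0.265 and 0.794 in the second, a spread within each set that was far wider than the difference of 0.001 between the means. Against variant 46 it was 1, 0.419 and 0.546 in the first listed set and 0.310, 0.419 and 0.794 in the second. The largest differences in the cluster were level 1 against level 0, in the rows of variants 29 and 39 and of variants 34 and 39, and they rested on 0.667 and 1.33 reads per library.

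Without the read minimum, the levels of the 2 sets did not overlap in 186 of the 1244 Dscam1 rows (15.0%), against 31.8% of the readable rows of other genes. Libraries without reads on either exon, present in 533 Dscam1 rows, were left out, so a row could count with fewer than 3 libraries in a set. Of these 186 rows, 154 were of exon 6, 25 of exon 9 and 7 of exon 4. They repeat a few exons, since 33 of the 154 exon 6 rows contained variant 25 and 71 contained variant 25, 40 or 12. With all 1244 rows in the edgeR test, none was called, against 184 of all 2577 rows (7.14%), 22 had an unadjusted p below 0.05 and the smallest adjusted p was 0.114.

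Because rows share exons, each exon was also set against all other listed exons of its cluster, an alternative chosen after the data were seen. Of 42 Dscam1 exons with at least 10 reads (10 of exon 4, 26 of exon 6, 5 of exon 9 and 1 of the exon 17 pair), edgeR called none, and 3 had an unadjusted p below 0.05. Over all exons of the table tested in this way 9.78% were called. The shares of the 2 sets did not overlap for 7 of the 42 Dscam1 exons, against 35.8% of all exons tested and 36.5% of those of other genes.

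The exon with the smallest p was exon 6 variant 25 (chr2R:7355291-7355414). It had 3, 4 and 3 reads in the first listed set and 0, 1 and 0 in the second. As shares of the cluster's reads this was 4.48%, 4.21% and 3.26% in the first listed set, and 0%, 0.833% and 0% in the second. The counts of 0 in the second set allow shares of up to 2.44% and 3.41%, and the higher of these limits lies above the lowest share of the first set. The log2 odds ratio was 3.35 ± 0.91 (SE; interval 1.34 to 5.37), and the edgeR adjusted p was 0.0264. Exon 6 variant 40 had 0, 0 and 1 reads in the first listed set against 2, 4 and 3 in the second (edgeR adjusted p 0.109), and exon 4 variant 10 had 12, 8 and 9 against 6, 8 and 5 (edgeR adjusted p 0.125). All 3 are named because of their values.

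Dscam1 was also searched in the tables of the other splicing types. It had no row among 1987 of alternative 3′ splice sites, 2174 of alternative 5′ splice sites and 346 of retained introns, and 10 rows among 6493 of skipped exons. Of these 10, 8 joined 2 variable exons of a single cluster, 6 in the exon 6 cluster (variants 6 and 40, 12 and 13, and 7 and 8) and 2 in the exon 9 cluster (variants 13 and 31). Such rows describe transcripts that would hold both exons, a form that none of the annotated transcripts has. Their counts of the form with the exon include reads that lie inside the exon, so they do not count reads joining the 2 exons.

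In the 2 exon 9 rows, variant 13 upstream of variant 31 was listed with 8, 6 and 5 reads in the first listed set and 9, 9 and 6 in the second, at inclusion levels of 0.153, 0.176 and 0.135 against 0.183, 0.157 and 0.090. Variant 31 downstream of variant 13 had 1, 7 and 5 reads in the first listed set and 11, 9 and 7 in the second. The exon 6 rows had 0 to 8 reads of either form in a library.

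The remaining 2 skipped exon rows lay downstream of the exon 17 cluster. An exon of 67 bases (chr2R:7321583-7321649) was included at 0.661, 0.743 and 0.743 in the first listed set and 0.800, 0.706 and 0.765 in the second, with 17 to 34 reads without it in every library. An exon of 150 bases (chr2R:7323819-7323968) was included at 1 in all 3 libraries of the first listed set, and at 1, 0.872 and 0.969 in the second. These levels overlapped between the sets or met at 1, and they were not tested.

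The level of the gene was taken from the count tables of all 9 libraries, in which the labels name the groups. These libraries held 26287040 to 34401160 counts in genes. The knockdowns were checked first. Psi was at 74.7, 65.7 and 61.7 CPM (the count scaled to a common library size) in Psi RNAi, against 335.4, 321.7 and 323.3 CPM in control, and fell by 2.28 on the log2 scale (SE 0.08, edgeR adjusted p 1.13e-06). Myc, a transcription factor that promotes growth, was at 132.0, 109.4 and 103.0 CPM in Myc RNAi, against 149.5, 146.8 and 139.2 CPM in control, a log2 fold change of -0.34 ± 0.09 (SE) that was not called (edgeR adjusted p 0.0146, 0.00972 with the replicate number as a block, and 0.000830 without the first Myc RNAi replicate). In Psi RNAi, Myc was at 107.2, 117.6 and 108.3 CPM, a log2 fold change of -0.39 ± 0.09 against the same controls (SE; edgeR adjusted p 0.0214, and 0.00501 with only the 2 groups in the fit). DESeq2 called Myc in both knockdowns (adjusted p 0.000858 in Psi RNAi and 0.00302 in Myc RNAi).

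Dscam1 was at 103.6, 105.1 and 119.0 CPM in Psi RNAi, against 123.8, 132.2 and 122.0 CPM in control. All 3 Psi RNAi libraries lay below all 3 controls. The log2 fold change was -0.21 ± 0.06 (SE), and it was not called (edgeR adjusted p 0.0631), in a comparison in which 4.07% of 9235 genes were called and the groups did not overlap for 32.8%. In Myc RNAi, Dscam1 was at 156.4, 145.5 and 154.1 CPM, above every control. There it rose by a log2 fold change of 0.27 ± 0.06 (SE; edgeR adjusted p 0.00808), in a comparison in which 19.0% of genes were called, 7.60% as higher, and the groups did not overlap for 46.1%. This call was lost when any 1 library of the 2 groups was left out (adjusted p 0.0121 to 0.0363) and with the replicate number as a block (adjusted p 0.0112). It was not lost in every setting, since over all 10 alternative edgeR and DESeq2 fits the adjusted p ran from 6.18e-05 to 0.0363. By the exact permutation test of the CPM values, two-sided, p was 0.1 in both comparisons, the smallest that 3 against 3 can give. Bulk discs do not separate fewer cells that express Dscam1 from less Dscam1 RNA per cell.

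**Figure D5:**
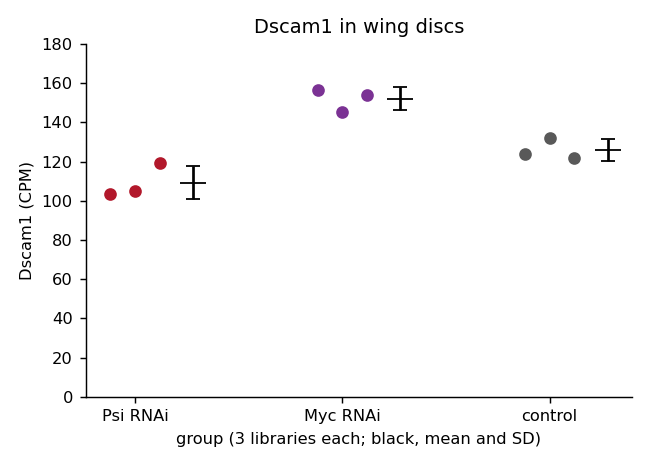
Dscam1 CPM, counts scaled to a common library size (y axis, from 0), in Psi RNAi, Myc RNAi and control wing discs (x axis). Each point is 1 of 3 libraries, and the black bars give the mean and SD. The Psi RNAi libraries lie at 103.6 to 119.0, the Myc RNAi libraries at 145.5 to 156.4 and the controls at 122.0 to 132.2.

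The other members of the Dscam family were low in most libraries. Dscam2, which also mediates recognition between neurites, was at 0.720, 0.564 and 1.38 CPM in Psi RNAi and at 1.13, 1.43 and 0.177 CPM in Myc RNAi, against 10.7, 3.67 and 0.229 CPM in control. Dscam4 was at 0.396, 0.211 and 0.437 CPM in Psi RNAi and at 0.423, 0.367 and 0.177 CPM in Myc RNAi, against 3.78, 3.19 and 0.267 CPM in control. In both genes 2 controls stood above every other library and the remaining control did not. Neither was called in Psi RNAi (edgeR adjusted p 0.230 and 0.0648) or in Myc RNAi (0.169 and 0.0262), and Dscam3 was too low to be tested. Without the third control replicate, Dscam4 was called as lower in both knockdowns (edgeR adjusted p 0.00527 in Psi RNAi and 0.000868 in Myc RNAi), and with DESeq2 on all libraries it was called in Myc RNAi (adjusted p 0.00299).

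Among the lists of genes around Dscam1, few members were called in Psi RNAi, where 1.80% of all genes were called as higher and 2.27% as lower. Of 14 ligands and signalling partners, 1 rose and none fell. It was wnd, a kinase of the axon injury pathway, at 164.5, 176.2 and 162.6 CPM in Psi RNAi against 135.7, 127.0 and 138.1 CPM in control (log2 fold change 0.33 ± 0.05 SE, edgeR adjusted p 0.00396). Of the 12 genes in a list drawn up for SR proteins, 1 fell and none rose. Not all of the 12 encode activators of splicing, and Srp54k is not an SR protein gene. The gene that fell was B52, at 764.8, 777.0 and 786.0 CPM in Psi RNAi against 882.9, 892.1 and 935.6 CPM in control (log2 fold change -0.22 ± 0.04 SE, edgeR adjusted p 0.00496).

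Of 15 hnRNP and KH splicing regulator genes, Psi itself was the 1 that fell, and none rose. Of the 8 genes in a list drawn up for U1, U2AF and branch point factors, which also holds Prp18 and Saf-B, SF1 rose and none fell. SF1, which binds the branch point, was at 345.7, 337.9 and 340.5 CPM in Psi RNAi against 253.3, 263.7 and 253.9 CPM in control (log2 fold change 0.41 ± 0.04 SE, edgeR adjusted p 0.000318). With the 3 tested Dscam genes, 4 of 52 genes were called in Psi RNAi and 8 in Myc RNAi. The median log2 fold changes of these 4 other lists lay between -0.03 and 0.02 in Psi RNAi, where the median of all genes was -0.01. The call of wnd was lost without any 1 of the controls or without the first or second Psi RNAi replicate (adjusted p up to 0.0204). That of B52 was lost without any single library of the 2 groups (adjusted p up to 0.0252) and with only the 2 groups in the fit (0.0182), and that of SF1 was kept each time. Over all 11 alternative edgeR and DESeq2 fits, the adjusted p ran from 3.1e-07 to 0.0315 for wnd. For B52 it ran from 2.73e-08 to 0.0431.

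Markers of other cells in the discs varied between libraries. The sum of 15 haemocyte markers was 553 to 738 CPM in Psi RNAi and 614 to 921 CPM in Myc RNAi, against 819 to 1394 CPM in control, and none of the 14 tested was called in either knockdown. Their median log2 fold change was -0.78 in Psi RNAi and -0.36 in Myc RNAi, against -0.01 and -0.03 over all genes. The sum of 6 fat body markers was 252 to 6643 CPM in Psi RNAi and 801 to 2412 CPM in Myc RNAi, against 686 to 10903 CPM in control. The sum of 11 salivary gland and gut markers was 18.0 to 1589 CPM in Psi RNAi and 5.66 to 401 CPM in Myc RNAi, against 6.86 to 33.6 CPM in control, with 1 library of each knockdown far above every control. Neuron and glia markers summed to 602 to 647 CPM in Psi RNAi and 627 to 706 CPM in Myc RNAi, against 587 to 662 CPM in control. This sum does not stand for every member. Gli held the most counts, at 360, 357 and 386 CPM in Psi RNAi against 291, 316 and 333 CPM in control. Among the low members, nSyb was at 1.01, 0.493 and 0.583 CPM in Psi RNAi against 3.51, 13.7 and 0.954 CPM in control. The median log2 fold change of the 15 genes was -0.28 in Psi RNAi and -0.16 in Myc RNAi, and none was called. The wing disc markers summed to 4286 to 4820 CPM in Psi RNAi and 4793 to 4911 CPM in Myc RNAi, against 4566 to 4610 CPM in control. Without the first replicates of Psi RNAi and control, the richest in fat body transcripts of their groups, the log2 fold change of Dscam1 in Psi RNAi was -0.18 ± 0.07 (SE; edgeR adjusted p 0.256). The part of other cells in the level of Dscam1 was not tested further.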

How the data were processed

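Poly(A) RNA of 9 libraries was sequenced with a stranded TruSeq protocol. The authors aligned reads with TopHat2 2.1.1 to FlyBase release 6 and deposited counts per gene from HTSeq 0.6.1. For Psi RNAi and control they deposited rMATS tables, which give per library the reads of each exon (on its junctions and inside it) and an inclusion level scaled by form length, exon length plus 99 bases. In 827 rows of other genes the separators between libraries were lost, and reads were recovered as the numbers that give the listed levels within 0.00051. All Dscam1 rows were intact, and 58 rows of other genes were left out. Counts were taken as deposited, per the labels, and scaled by TMM. Tests used edgeR 4.0.16 in R 4.3.3, with limma 3.58.1, DESeq2 1.42.0 and quasi-binomial models as alternatives, and the scripts were tested on simulated data. Event tests had a term per library, exon and exon by set, and gene tests used filterByExpr and all 9 libraries. Intervals of shares are Wilson intervals, and a count of 0 was taken to allow 3 counts. Named were the events of largest difference and of most reads in each cluster, the exons of highest usage, Dscam1, Psi, Myc, the Dscam family and the list genes called in Psi RNAi. The members, lists and tests were chosen with earlier results of these data known. The deposited tables also hold the authors' own fold changes, level differences and p-values, which were not used, and 36 columns of values per library or set that were not used. Replicate numbers of Myc RNAi and control moved together (correlations of deviations from the group means 0.309, 0.232 and 0.442), so the blocked fit is given where it changed a call. No 2 libraries of a group agreed within sampling noise. Gene symbols matched 17242 of 17471 identifiers. Exons were matched to an Ensembl annotation of the same assembly. The result of 1 gene of the lists is not reported here.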

Additional observations from a re-analysis of the deposited data

Results flagged for a closer look

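The effects of the 2 knockdowns on Dscam1 differed between Psi RNAi and Myc RNAi. Dscam1 was at 103.6, 105.1 and 119.0 CPM in Psi RNAi and at 156.4, 145.5 and 154.1 CPM in Myc RNAi, and the 2 knockdowns did not overlap. Psi RNAi minus Myc RNAi was -0.48 ± 0.06 on the log2 scale (SE), with an edgeR adjusted p of 0.000263 over all 9235 genes. The share of all genes called or not overlapping between the 2 knockdowns was not determined, so Dscam1 is not shown to be unusual in this. Against control, the groups did not overlap for 32.8% of genes in Psi RNAi and 46.1% in Myc RNAi. This difference was not refitted under the alternatives. Both knockdowns were set against the same 3 controls, which cancel in this difference. There was no splicing table for Myc RNAi among the files analysed, so the exon choice of Dscam1 was not compared between the knockdowns.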

How the results depend on the processing

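No Dscam1 event and no Dscam1 exon was called under any alternative run, with 36 to 64 events tested when single libraries were left out. Over all tested rows of the table, 162 were called by edgeR with the minimum of 20 reads, against 9 by limma on the logit of the level, 3 by the quasi-binomial model and 20 with only the rows whose reads were listed apart. With single libraries left out, the log2 odds ratio of exon 4 variants 1 and 8 ran from -0.24 to 0.77 and that of exon 17 variants 1 and 2 from -0.54 to 0.082, and both changed sign. No paired analysis of the events was run, because the splicing tables carry no replicate numbers. At gene level, Dscam1 in Psi RNAi stayed below control and uncalled, with adjusted p of 0.0162 to 0.256 (DESeq2 0.0244). In Myc RNAi its log2 fold change was 0.25 to 0.31 without single libraries and 0.27 with the replicate block, and none of these passed the threshold. Over all 10 alternative edgeR and DESeq2 fits, its lowest adjusted p in Myc RNAi was 6.18e-05. Psi in Myc RNAi was at -0.082 to 0.0050 without single libraries. In Psi RNAi, 4 genes of the fixed lists were called, against 12 by DESeq2 (873 of all genes, and 376 by edgeR), 8 with the replicate block, 2 without the first replicates of Psi RNAi and control, and 2 to 4 without single libraries. The correlations by replicate number of Psi RNAi and control were 0.304, 0.0901 and 0.212. Each of these 6 samples correlated best with its own number, as did those of Myc RNAi and control. Pairing is thus a hint from the data and not from the design. In Myc RNAi 8 were called, against 15 by DESeq2 (2350 of all genes, and 1754 by edgeR) and 5 to 7 without single libraries. The blocked fit changed no other call of a named gene except that of Myc in Myc RNAi (adjusted p 0.00972). Depth limited every statement on exon 6 and on the rare exon 9 variants. The sets are unnamed, so no direction was assigned to any splicing difference.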

Other observations

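Of 52 tested genes in the lists of the Dscam family, Dscam1 partners and splicing factors, 8 were called in Myc RNAi, in a comparison with 19.0% of all genes called, and 4 in Psi RNAi, with 4.07%. Of the 4 in Psi RNAi, 1 was Psi itself, the target of the RNAi. Beside Dscam1 and wnd, the genes that rose in Myc RNAi included NetA, qkr58E-1, qkr58E-3 and snRNP-U1-70K, and sqd fell. These were named after their values were seen. The KH domain genes qkr58E-1 and qkr58E-3 rose by log2 fold changes of 0.57 ± 0.10 and 0.52 ± 0.08 (SE; edgeR adjusted p 0.00236 and 0.000848). In Psi RNAi the log2 fold changes of these 2 genes were 0.12 and 0.01, which were not called. NetA, which encodes a secreted guidance cue that can bind Dscam1, was at 38.7, 48.9 and 46 CPM in Myc RNAi, against 22.4, 32.6 and 30.3 CPM in control (log2 fold change 0.65 ± 0.14 SE, edgeR adjusted p 0.00727). The hnRNP gene sqd was at 1490, 1472 and 1350 CPM in Myc RNAi, against 1675, 1682 and 1683 CPM in control (log2 fold change -0.22 ± 0.04 SE, edgeR adjusted p 0.00380).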
